A study of Callithrix jacchus with 71 samples.

Results

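The 45 genes described here serve DNA replication and cell division in single cells of the common marmoset. They were taken from a list chosen by function, and a gene was kept if it had a row in the deposited table. All 45 listed genes had one, among 23561 rows that carry a gene name. By role, 22 act in DNA replication, 19 in mitosis and 4 are cyclins that act at the passage from G1 to S phase.

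The series measured RNA in 71 single cells by RamDA-seq, a method that copies the RNA of 1 cell and reads transcripts along their length. It holds 65 E01F A-2 induced neural stem cell-like cells (iNSLCs) at passage 1, 4 no. 40 embryonic stem cells (ESCs), 1 E01F A-2-2 induced pluripotent stem cell (iPSC) and 1 E01F fibroblast. The iNSLCs came from E01F dorsal skin fibroblasts of an embryonic marmoset, carried EP-A episomal vectors and were grown in NSM, a medium first used for putative naive-state pluripotent cells. These vectors encode EGFP, the human factors LIN28, L-MYC, KLF4, SOX2 and OCT4, and mp53DD, a dominant-negative form of mouse p53. The iPSC line came from the same fibroblasts after a further conversion in ESC medium, while the no. 40 ESCs are an unrelated line without these vectors. Each group is 1 line with 1 source in the labels, so cells of a group are not independent cultures and no test between groups was made.

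Before a cell divides, the origin recognition complex, CDC6 and CDT1 load the MCM2 to MCM7 helicase onto DNA. At the start of S phase the loaded helicase joins CDC45 and the GINS complex, and polymerases copy the DNA while chromatin assembly factors rebuild nucleosomes behind the fork. The E2F factors switch on most of these genes late in G1, whereas transcripts of the mitotic cyclins, kinases and kinetochore proteins accumulate later, in G2 and M.

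Marker genes were checked against the labels. The summed level of 8 pluripotency markers was 414 to 1304 normalized counts in the ESCs and 752 in the iPSC, and at most 30.2 in the iNSLCs. The iNSLCs instead had 1262 to 8512 for 8 neural stem cell markers, with reads of 7 or 8 of them in each cell. The fibroblast lay inside this range at 7265.5, but VIM alone gave 7161 of it and only 3 of the 8 markers had reads. For 8 fibroblast markers the fibroblast had 26879. Against its label, the ESC group had a mean of 162 normalized counts of COL1A1, a collagen gene of fibroblasts, where the iNSLC mean was 1.52 and the ESC mean of COL1A2, the partner chain, was 0.61. Reads on genes were 82268 to 695241 in iNSLCs with a median of 268128. Among the ESCs 3 had 464547 to 1003718, while ESC 11 had 134328 and also no read of the adhesion gene CDH1. The iPSC had 302617 and the fibroblast 1294430.

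By group means, the ESCs held higher levels of most replication genes than the iNSLCs, while mitosis genes were about as often higher as any gene of the table. A gene was counted as higher or lower when the log2 ratio of the 2 group means, after a pseudocount of 1, was at least 1 in size. Of all 16271 genes with a mean of at least 1 in either group, 31.8% were at least 2-fold higher in ESCs and 17.7% at least 2-fold lower, with a median log2 ratio of 0.35. Of the 22 replication genes, 17 were at least 2-fold higher and 1 lower, with a median log2 ratio of 2.75. Of the 19 mitosis genes, 6 were at least 2-fold higher and 1 lower, with a median of 0.71. The 4 cyclins of G1 and S had a median of 0.51, with 1 higher and 1 lower. All 45 genes passed the filter on low values in this comparison. The mitosis count depends on the use of means, which a few iNSLCs carry. Against the median over iNSLCs 16 of the 19 mitosis genes were at least 2-fold higher in ESCs and none lower, beside 38.5% of all genes, and 18 of the 22 replication genes were higher.

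By the median ratio the contrast between the classes was seen in each ESC, and it was least in ESC 11. There 12 of 22 replication genes were at least 2-fold higher and 6 lower, beside 9 of 19 mitosis genes higher and 8 lower. Set against the iNSLC mean, the replication median was 2.85 in ESC 10, 1.21 in ESC 11, 2.85 in ESC 12 and 2.84 in ESC 14. The mitosis median was 0.19, 0.70, 0.29 and 0.98 in the same cells. By this median ESC 11, the shallow cell, thus stood below the other ESCs for replication genes and within their range for mitosis genes. By the sum of the replication genes it did not, with 3176 normalized counts against 2399 in ESC 12. With every cell scaled to the same total, the median of all genes moved from 0.35 to 0.05, the replication genes kept 17 higher with 2 lower, and the mitosis genes went to 4 higher and 3 lower.

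**Figure D1:**
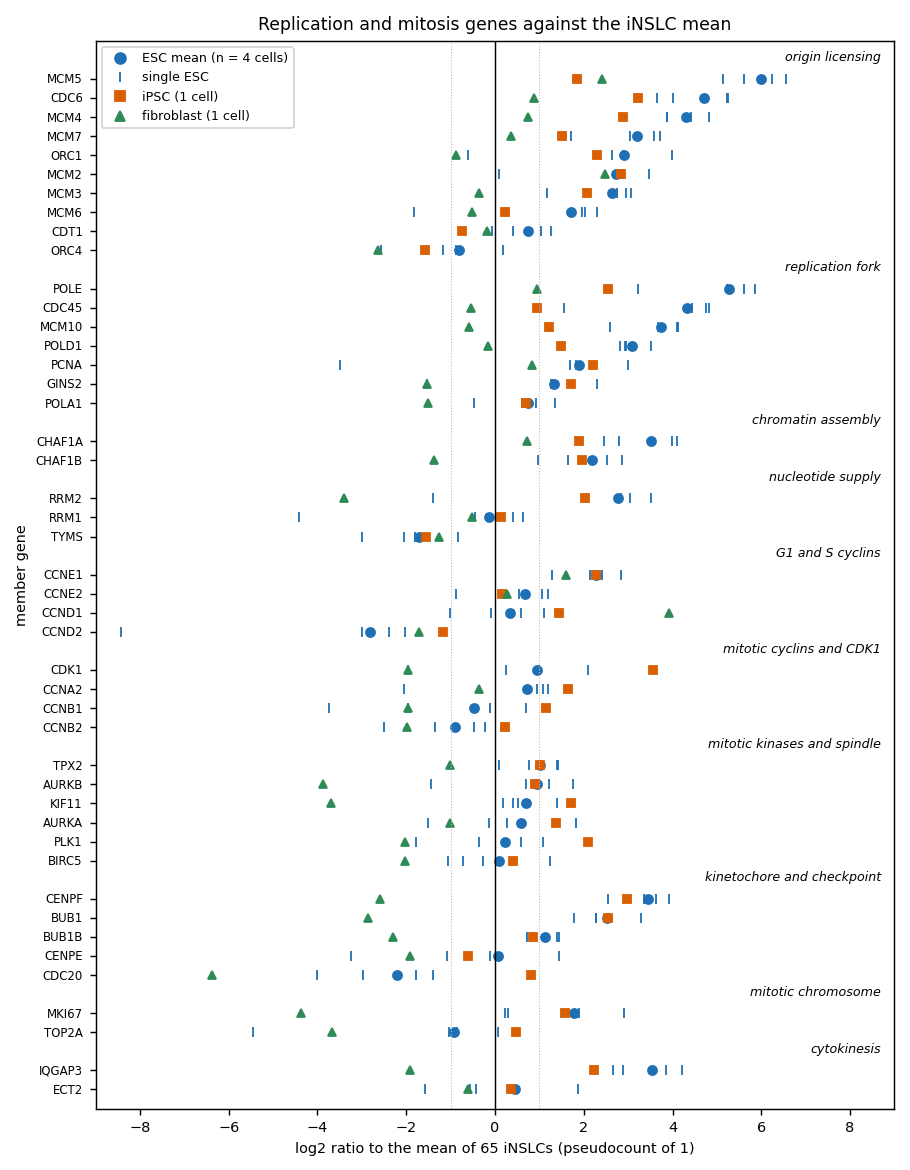
The x axis gives the log2 ratio of each group to the mean of 65 iNSLCs, with a pseudocount of 1, and each line of the y axis is a gene, grouped by role. Blue circles are the means of 4 ESCs and blue ticks single ESCs, orange squares are the iPSC and green triangles the fibroblast. In ESCs 17 of 22 replication genes lie at 1 or above, whereas in the fibroblast all 19 mitosis genes lie below 0.

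Among the licensing genes, which prepare origins for a new round of replication, 8 of 10 were at least 2-fold higher in ESCs, with a median log2 ratio of 2.82. MCM5, a subunit of the helicase, was at 399, 498, 185 and 261 normalized counts in ESC 10, 11, 12 and 14, at 18.2 in the iPSC and at 27.5 in the fibroblast, and in iNSLCs it ranged from 0 over a median of 0 to 30.3. All 4 ESCs therefore stood above every iNSLC, while the iPSC and the fibroblast lay within the iNSLC range. The mean was 336 ± 140 (SD, n = 4 cells) in ESCs and 4.32 ± 7.98 (SD, n = 65 cells) in iNSLCs, a 77.7-fold difference and the largest log2 ratio of the members at 5.98.

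CDC6, the loader of the helicase, was at 110, 112, 36.2 and 46.7 in the ESCs, at 26.7 in the iPSC and at 4.45 in the fibroblast, and in iNSLCs it ranged from 0 over a median of 0 to 17. MCM4, a further helicase subunit, was at 156, 156, 228 and 301 in the ESCs, at 78.0 in the iPSC and at 17 in the fibroblast, and in iNSLCs it ranged from 0 over a median of 0 to 85.1. For both genes every ESC exceeded every iNSLC, and for CDC6 the iPSC did so too. The ESC mean was 38.9-fold higher for CDC6 and 21.7-fold higher for MCM4, with log2 ratios of 4.70 and 4.30.

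The remaining helicase subunits MCM2, MCM3, MCM6 and MCM7 had log2 ratios of 1.72 to 3.19, and for each of them 3 of the 4 ESCs exceeded every iNSLC and ESC 11 did not. ORC1, the largest subunit of the origin recognition complex, had a ratio of 2.91 and the same split. CDT1, the partner of CDC6, had a ratio of 0.75, and 9 of 65 iNSLCs stood above the highest ESC.

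ORC4, another subunit of the origin recognition complex, was the licensing gene that went the other way. It was at 7.29, 20.4, 2.16 and 9.16 in the ESCs, at 5.34 in the iPSC and at 2.02 in the fibroblast, and in iNSLCs it ranged from 0 over a median of 12.1 to 91.8. The groups overlapped, and 20 iNSLCs stood above the highest ESC. Its log2 ratio of -0.80 moved to 0.02 when only iNSLCs numbered 57 or above were used, since their mean was 9.57 against 29.4 in those numbered 56 or below. Cell numbers come from the labels, and whether they mark plates is not given there.

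Of the 7 fork genes, 6 were at least 2-fold higher in ESCs, with a median log2 ratio of 3.08. POLE, the catalytic subunit of the leading strand polymerase, was at 1179, 1392, 222 and 904 in the ESCs, at 139 in the iPSC and at 45.7 in the fibroblast, and in iNSLCs it ranged from 0 over a median of 2.25 to 134. All 4 ESCs and the iPSC exceeded every iNSLC, and ESC 12 lay well below the other 3 ESCs. The means were 924 ± 509 (SD, n = 4 cells) and 23.1 ± 35.3 (SD, n = 65 cells), a 40.0-fold difference with a log2 ratio of 5.26.

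CDC45, which couples to the helicase at the fork, was at 107, 102, 10.3 and 82.5 in the ESCs, at 6.41 in the iPSC and at 1.62 in the fibroblast, and in iNSLCs it ranged from 0 over a median of 0 to 42.0. MCM10, an initiation factor for the fork, was at 46.1, 15.3, 34.0 and 46.7 in the ESCs, at 5.34 in the iPSC and at 0.81 in the fibroblast, and in iNSLCs it ranged from 0 over a median of 0 to 24.5. In each case 3 ESCs exceeded every iNSLC and the fourth did not, ESC 12 for CDC45 and ESC 11 for MCM10. The log2 ratios were 4.32 and 3.74. The iPSC ratio of MCM10 went from 1.22 to -1.67 when cells were thinned to equal depth, so no direction is given for it there.

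PCNA, the sliding clamp of the polymerases, was at 35.6, 0, 89.1 and 39.2 in the ESCs, at 51.3 in the iPSC and at 19.0 in the fibroblast, and in iNSLCs it ranged from 0 over a median of 7.10 to 60.5. ESC 12 alone stood above every iNSLC, and ESC 11 had no read. Its log2 ratio was 1.89. POLD1, the catalytic subunit of polymerase delta, had a ratio of 3.08 and every ESC above every iNSLC, whereas POLA1, that of polymerase alpha, and GINS2, a subunit of the GINS complex, had ratios of 0.74 and 1.34 and overlapped.

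The subunits of chromatin assembly factor 1 among the members, CHAF1A and CHAF1B, were both higher in ESCs. CHAF1A was at 98.8, 289, 126 and 311 in the ESCs, at 66.3 in the iPSC and at 29.1 in the fibroblast, and in iNSLCs it ranged from 0 over a median of 2.84 to 113. CHAF1B was at 49.0, 20.4, 12.4 and 38.3 in the ESCs, at 25.6 in the iPSC and at 1.62 in the fibroblast, and in iNSLCs it ranged from 0 over a median of 1.93 to 40.0. For CHAF1A 1 iNSLC stood above the lowest ESC and for CHAF1B 10 did. Their log2 ratios were 3.51 and 2.18.

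The 3 genes of nucleotide supply did not move together. RRM2, the small subunit of ribonucleotide reductase and the one that is made in S phase, was at 297, 12.8, 408 and 256 in the ESCs, at 145 in the iPSC and at 2.43 in the fibroblast, and in iNSLCs it ranged from 0 over a median of 7.16 to 225. Apart from ESC 11 every ESC exceeded every iNSLC, and the log2 ratio was 2.76. RRM1, the large subunit, was at 27.1, 0, 14.6 and 31.7 in the ESCs, at 22.4 in the iPSC and at 13.8 in the fibroblast, and in iNSLCs it ranged from 0 over a median of 13.5 to 113. Its log2 ratio of -0.13 changed sign under other settings.

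TYMS, the thymidylate synthase that makes dTMP, was the only replication gene at least 2-fold lower in ESCs. It was at 30.8, 15.3, 72.9 and 36.7 in the ESCs, at 43.8 in the iPSC and at 53.4 in the fibroblast, and in iNSLCs it ranged from 0 over a median of 121 to 421. The highest ESC was exceeded by 41 of 65 iNSLCs and the iPSC by 50. The log2 ratios were -1.71 for ESCs, -1.55 for the iPSC and -1.27 for the fibroblast, so the iNSLC mean was the highest of the groups. TYMS had reads in 98.5% of iNSLCs (95% exact interval 91.7 to 100%).

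Groups that did not overlap were found only among replication genes. MCM4, MCM5, CDC6, POLD1 and POLE, 5 of 22, had every ESC above every iNSLC, against 2.02% of all genes tested. None of the 19 mitosis genes or of the 4 cyclins did, and no member had every ESC below every iNSLC, which 0.27% of all genes had.

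**Figure D2:**
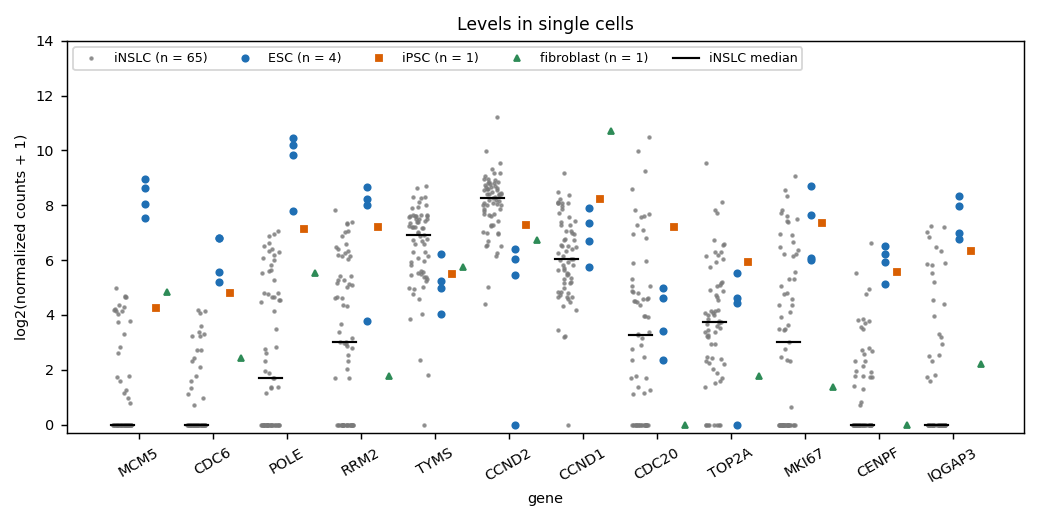
The y axis gives log2 of the normalized count plus 1 in single cells for 12 of the members on the x axis. Grey points are 65 iNSLCs with their median as a black line, blue circles 4 ESCs, orange squares the iPSC and green triangles the fibroblast. ESCs lie above all iNSLCs for MCM5, CDC6 and POLE, and within or near the iNSLC range for CDC20, TOP2A and MKI67.

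The 4 cyclins of G1 and S showed opposite orders. CCND2, a D-type cyclin that activates CDK4 and CDK6, was at 42.5, 0, 65.3 and 84.1 in the ESCs, at 153 in the iPSC and at 106 in the fibroblast, and in iNSLCs it ranged from 20.4 over a median of 306 to 2403. It had reads in all 65 iNSLCs, and 61 of them stood above the highest ESC. The iNSLC mean was 7.20-fold above the ESC mean, with a log2 ratio of -2.82. CCND1, the related D-type cyclin, was at 102, 163, 237 and 53.3 in the ESCs, at 297 in the iPSC and at 1662 in the fibroblast, and in iNSLCs it ranged from 0 over a median of 65.1 to 583. The fibroblast was thus above all other cells for CCND1, 15.2-fold over the iNSLC mean, while the ESCs lay within the iNSLC range with a log2 ratio of 0.34.

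CCNE1, an E-type cyclin that activates CDK2 at the start of S phase, was at 46.1, 28.1, 15.1 and 34.2 in the ESCs, at 31.0 in the iPSC and at 19.0 in the fibroblast, and in iNSLCs it ranged from 0 over a median of 2.86 to 30.3. ESC 10, ESC 14 and the iPSC stood above every iNSLC, and the log2 ratio was 2.27. CCNE2, the other E-type cyclin, was scarce everywhere. It was at 2.83, 0, 3.24 and 1.67 in the ESCs, at 1.07 in the iPSC and at 1.21 in the fibroblast, and in iNSLCs it ranged from 0 over a median of 0 to 13.4.

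With all cells and a pseudocount of 1, none of the 4 genes of the mitotic cyclins and CDK1 reached a log2 ratio of 1 in size in ESCs. Under some other setting each of the 4 did. CDK1, the kinase that drives entry into mitosis, was at 3.64, 0, 15.7 and 6.66 in the ESCs, at 44.9 in the iPSC and at 0 in the fibroblast, and in iNSLCs it ranged from 0 over a median of 0 to 55.7. Only 24.6% of iNSLCs (95% exact interval 14.8 to 36.9%) had a read of CDK1, and the iPSC stood above all but 1 of them. Its log2 ratios were 0.95 for ESCs and 3.56 for the iPSC. That for ESCs ran from 0.19 without ESC 12 to 1.48 against iNSLCs numbered 57 or above.

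CCNB2, a B-type cyclin that binds CDK1, was at 6.88, 2.55, 16.2 and 13.3 in the ESCs, at 22.4 in the iPSC and at 4.05 in the fibroblast, and in iNSLCs it ranged from 0 over a median of 6.13 to 160. CCNA2, the A-type cyclin of S and G2 phase, was at 32.8, 2.55, 27.5 and 30.0 in the ESCs, at 44.9 in the iPSC and at 10.5 in the fibroblast, and in iNSLCs it ranged from 0 over a median of 4.85 to 152. All ESCs lay within the iNSLC range for both. The log2 ratios were -0.90 and 0.72. Under other settings they ran from -1.31 to -0.55 for CCNB2 and from 0.28 to 1.15 for CCNA2. CCNB1, the other B-type cyclin, had a ratio of -0.47 whose sign depended on the setting.

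Of the 6 genes of mitotic kinases and the spindle only TPX2, an activator of Aurora A at the spindle, reached 2-fold in ESCs. It was at 17.8, 28.1, 10.8 and 28.3 in the ESCs, at 21.4 in the iPSC and at 4.45 in the fibroblast, and in iNSLCs it ranged from 0 over a median of 2.37 to 111. Its log2 ratio was 1.01, and 6 iNSLCs stood above the highest ESC. The ratio lay just above the limit, and it was 0.75 with scaling, 0.97 with thinning, 0.86 without ESC 11 and 0.85 without ESC 14.

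AURKB, the Aurora kinase of the chromosomal passenger complex, was at 4.45, 23, 49.1 and 33.3 in the ESCs, at 26.7 in the iPSC and at 0 in the fibroblast, and in iNSLCs it ranged from 0 over a median of 0 to 187. KIF11, the motor that pushes spindle poles apart, was at 13.8, 33.2, 16.2 and 17.5 in the ESCs, at 41.7 in the iPSC and at 0 in the fibroblast, and in iNSLCs it ranged from 0 over a median of 1.25 to 168. For each of these genes 7 iNSLCs stood above the highest ESC, and the log2 ratios were 0.95 and 0.71, which became 1.29 for AURKB without ESC 10 and 1.01 for KIF11 without iNSLC 47. AURKA, PLK1 and BIRC5, a further Aurora kinase, the Polo kinase and survivin, had ratios of 0.10 to 0.59 whose sign depended on the setting.

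The log2 ratios of the 5 kinetochore and checkpoint genes ran from -2.22 to 3.44, and 3 genes were at least 2-fold higher in ESCs and 1 lower. CENPF, a protein of the outer kinetochore, was at 73.7, 89.4, 34.0 and 60.0 in the ESCs, at 46.0 in the iPSC and at 0 in the fibroblast, and in iNSLCs it ranged from 0 over a median of 0 to 98.4. BUB1, a checkpoint kinase, was at 48.2, 48.5, 34.0 and 99.1 in the ESCs, at 58.8 in the iPSC and at 0.40 in the fibroblast, and in iNSLCs it ranged from 0 over a median of 0 to 144. Most iNSLCs were below every ESC, yet 1 iNSLC stood above the highest ESC for each gene. The log2 ratios were 3.44 and 2.52, and that of the checkpoint gene BUB1B was 1.13. The BUB1B ratio was 0.85 with scaling, 0.62 against iNSLCs numbered 56 or below and 1.66 against those numbered 57 or above.

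CDC20, the activator of the anaphase-promoting complex, was the only mitosis gene at least 2-fold lower in ESCs. It was at 23.5, 30.6, 9.72 and 4.17 in the ESCs, at 145 in the iPSC and at 0 in the fibroblast, and in iNSLCs it ranged from 0 over a median of 8.62 to 1448. The ESC values lay around the iNSLC median, and 17 iNSLCs stood above the highest ESC. The iNSLC mean of 82.6 ± 232 (SD, n = 65 cells) was set by few cells, since 5 iNSLCs held 68.7% of the sum and the mean without the highest cell was 61.2. The log2 ratio was -2.22. CENPE, a kinetochore motor, had a ratio of 0.07 whose sign depended on the setting.

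Of the genes of the mitotic chromosome, MKI67, which coats mitotic chromosomes and is widely used as a proliferation marker, was at 201, 411, 65.9 and 62.5 in the ESCs, at 162 in the iPSC and at 1.62 in the fibroblast, and in iNSLCs it ranged from 0 over a median of 6.98 to 533. TOP2A, the topoisomerase that untangles sister chromatids, was at 44.9, 0, 20.5 and 23.3 in the ESCs, at 59.8 in the iPSC and at 2.43 in the fibroblast, and in iNSLCs it ranged from 0 over a median of 12.4 to 750. All ESCs lay within the iNSLC range for both, and the log2 ratios were 1.77 and -0.93. For TOP2A 5 iNSLCs held 56.0% of the iNSLC sum, and the ratio was -0.51 without iNSLC 47. It was -1.56 against iNSLCs numbered 56 or below and -0.21 against those numbered 57 or above. TOP2A had reads in 87.7% of iNSLCs (95% exact interval 77.2 to 94.5%) and MKI67 in 58.5% (45.6 to 70.6%).

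Of the cytokinesis genes, IQGAP3, a scaffold protein of dividing cells, was at 321, 250, 109 and 127 in the ESCs, at 80.1 in the iPSC and at 3.64 in the fibroblast, and in iNSLCs it ranged from 0 over a median of 0 to 149. ESC 10 and ESC 11 stood above every iNSLC and 4 iNSLCs above the lowest ESC, with a log2 ratio of 3.55. ECT2, the exchange factor that activates RhoA at the cleavage furrow, was at 12.5, 5.11, 11.3 and 65.8 in the ESCs, at 22.4 in the iPSC and at 10.9 in the fibroblast, and in iNSLCs it ranged from 0 over a median of 3.48 to 530. ESC 14 was apart from the other ESCs, and the ratio of 0.45 changed sign without it and against iNSLCs numbered 56 or below.

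The mitosis comparison also depended on which iNSLCs were used. The median log2 ratio of the 19 genes in ESCs was 0.28 against iNSLCs numbered 56 or below and 1.15 against those numbered 57 or above.

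In the single iPSC both classes were higher than in iNSLCs. Of all 15885 genes tested 27.0% were at least 2-fold higher in the iPSC and 24.7% at least 2-fold lower, with a median log2 ratio of 0.19. Of the replication genes 15 of 22 were higher and 2 lower, these being ORC4 and TYMS, with a median of 1.78. Of the mitosis genes 11 of 19 were higher and none lower, with a median of 1.16, and CENPE alone had a ratio below 0. The largest ratios were 3.56 for CDK1, 3.23 for CDC6 and 2.97 for CENPF. MCM5, the leading gene of the ESCs, had a ratio of 1.85 in the iPSC, and CDC20 one of 0.81. The summed level of the mitosis genes was 0.86 of that of the replication genes in the iPSC, and 0.20 to 0.33 in the ESCs. With 1 iPSC, the line cannot be told apart from the cell's own position in the cycle.

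In the fibroblast, mitosis genes were lower than in iNSLCs, and replication genes were not uniformly so. Of all 15181 genes tested 26.5% were at least 2-fold higher in the fibroblast and 26.1% at least 2-fold lower, with a median log2 ratio of 0.08. Of the 19 mitosis genes 17 were at least 2-fold lower and none higher, with a median of -2.03. Of the 22 replication genes 6 were lower and 2 higher, with a median of -0.45, and the higher ones were the helicase genes MCM2 at 2.47 and MCM5 at 2.42. At 110 normalized counts of MCM2 the fibroblast stood above every iNSLC, of which the highest had 100.

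CDC20, AURKB, KIF11, CENPF and CDK1 had no read in the fibroblast although it was the deepest cell. Set against a floor of 3 reads, they were at least 68.0-fold, 11.3-fold, 9.84-fold, 4.11-fold and 2.37-fold lower there than the iNSLC mean. MKI67 was 33.1-fold lower, BUB1 22.7-fold, TOP2A 17.7-fold and RRM2 14.4-fold lower. These folds are against means that few iNSLCs set. Against the iNSLC median the median log2 ratio was 0 for the mitosis genes, 0.66 for the replication genes and 0.60 for all genes. By that measure 5 mitosis genes were at least 2-fold lower and 2 higher, and 4 replication genes lower and 10 higher. Of all genes 13.1% were lower and 40.8% higher. When cells were scaled to the same total, the median of all genes went from 0.08 to -0.57, and 11 replication and all 19 mitosis genes were at least 2-fold lower, with 38.3% of all genes lower and 13.6% higher.

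Within the iNSLCs, both classes held genes found in few cells and genes found in most. The shares of iNSLCs with reads ran from 27.7% for MCM10 to 98.5% for TYMS among replication genes. Among mitosis genes they ran from 24.6% for CDK1 to 87.7% for TOP2A. The number of the 22 replication genes with a read ran from 6 over a median of 13 to 22 per iNSLC, and that of the 19 mitosis genes from 1 over a median of 9 to 19. ESC 10, ESC 12, ESC 14 and the iPSC had reads of all 22 and all 19, ESC 11 of 19 and 15, and the fibroblast of 21 and 14. After thinning to 100000 reads the fibroblast kept 17 replication and 7 mitosis genes, the ESCs 18 to 22 and 15 to 18, and the iNSLC medians were 12 and 8 (n = 62). A gene with no read may still be expressed, and longer or better captured transcripts are found more often, so shares are not compared as levels between genes.

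At least 11 of 22 replication genes had reads in 49 of 65 iNSLCs, which is 75.4% (95% exact interval 63.1 to 85.2%, counting error only). At least 10 of 19 mitosis genes had reads in 32, which is 49.2% (36.6 to 61.9%). Both limits were passed by 30 cells, only the replication limit by 19, only the mitosis limit by 2 and neither by 14. After thinning the same 4 classes held 24, 14, 1 and 23 of 62 cells. Of the 32 cells with many mitosis genes 30 were thus also cells with many replication genes, where the product of the shares of both classes gives 24.1 cells. The 2 exceptions, iNSLC 39 and iNSLC 54, each had 10 replication genes, just under the limit.

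**Figure D3:**
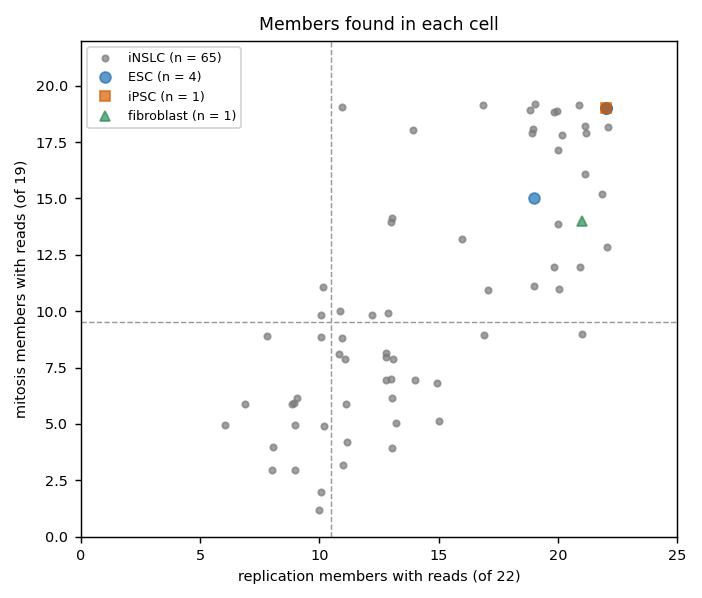
Each point is a cell, with the number of replication genes with reads on the x axis (of 22) and the number of mitosis genes with reads on the y axis (of 19), and small offsets separate overlapping iNSLCs. Dashed lines mark the limits of 11 and 10 genes. Of 65 iNSLCs 30 lie in the upper right and 2 in the upper left, and the 4 ESCs, the iPSC and the fibroblast lie in the upper right.

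Replication genes summed to 46.6, 324 and 1421 normalized counts in the lowest, median and highest iNSLC, against 3565, 3176, 2399 and 3434 in the ESCs, 1110 in the iPSC and 447 in the fibroblast. Mitosis genes summed to 3.46, 85.9 and 5560 in iNSLCs, against 859, 1055, 536 and 683 in the ESCs, 953 in the iPSC and 54.6 in the fibroblast. The 4 ESCs therefore lay above all iNSLCs for the replication sum and inside the iNSLC range for the mitosis sum, and the fibroblast lay inside both ranges.

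The iNSLC with the highest mitosis sum, iNSLC 47, had reads of all 19 mitosis genes and of 11 replication genes. Its mitosis sum of 5560 was 8.46 times its replication sum of 657, where the median ratio of iNSLCs was 0.26 and the lowest 0.02. It held the highest iNSLC value of CDC20 (1448), TOP2A (750), MKI67 (533), ECT2 (530) and PLK1 (309), and also that of 2 replication genes, TYMS (421) and RRM1 (113), while it had no read of 11 replication genes, MCM5, CDC6 and MCM4 among them. In iNSLC 86 and iNSLC 41, the cells next in order, the mitosis sums were 2608 and 2575 and the replication sums 703 and 442. At the other end iNSLC 36 had 1 mitosis gene, with a sum of 3.46, beside 10 replication genes.

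Across iNSLCs the 2 class sums, as log2 values, had a Pearson r of 0.70 and a Spearman rho of 0.75 (n = 65 cells). These cells share a culture, and each pair of sums comes from 1 library. In cells numbered 56 or below r was 0.67 (n = 27) and in those numbered 57 or above 0.74 (n = 38), and after thinning it was 0.74 (n = 62). The replication sum had an r of 0.23 and the mitosis sum one of 0.31 with reads on genes, and 0.39 and 0.36 with detected genes. The part of depth in the relation was not tested beyond the thinning.

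**Figure D4:**
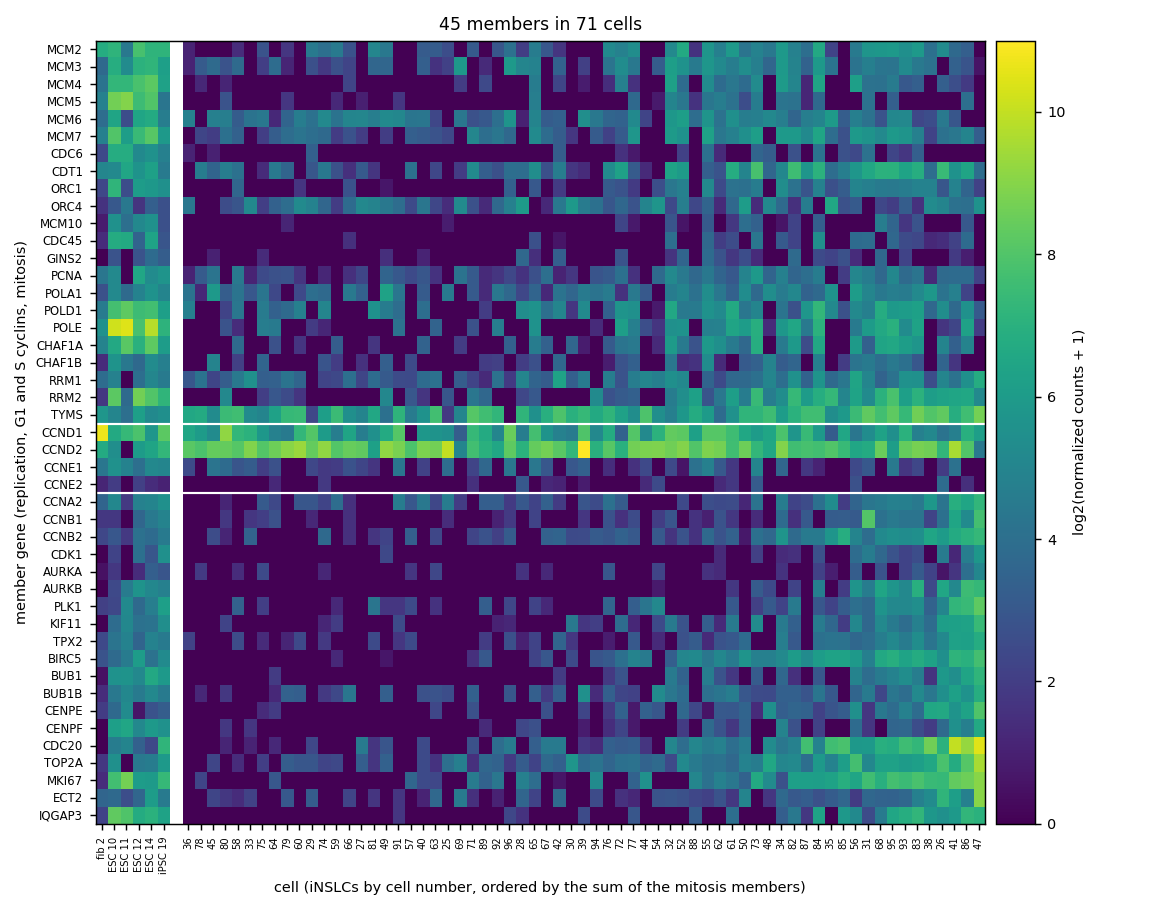
Colour gives log2 of the normalized count plus 1 for 45 genes (y axis, replication above, G1 and S cyclins between the white lines, mitosis below) in 71 cells (x axis). The fibroblast, ESCs and iPSC are on the left and the 65 iNSLCs follow in order of their mitosis sum, from 3.46 in iNSLC 36 to 5560 in iNSLC 47. POLE is brightest in ESC 10, ESC 11 and ESC 14, TYMS and CCND2 are bright in nearly all iNSLCs, and mitosis genes are bright at the right.

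Single members were set beside the class sums, with the member itself left out of the sum of its own class. By Spearman's rho over 65 iNSLCs, within the mitosis class the genes most like the mitosis sum were BIRC5 at 0.89, TOP2A at 0.84 and CENPE at 0.82, and the least like it was AURKA at 0.35. Within the replication class those most like the replication sum were ORC1 at 0.75, CDT1 at 0.72 and MCM4 at 0.70, and those least like it ORC4 at -0.19, MCM6 at 0.11 and TYMS at 0.19. The mitosis genes BIRC5 at 0.76 and BUB1 at 0.74 were as like the replication sum as the leading replication genes. RRM2 had a rho of 0.76 with the mitosis sum and 0.67 with its own class, and ORC1 one of 0.72 with the mitosis sum. The cyclins of G1 and S followed neither class, with rho from -0.22 for CCND2 to 0.15 for CCNE2 with the mitosis sum and from -0.20 to 0.14 for the same genes with the replication sum. ORC4, MCM6 and TYMS, the replication genes least like their class, were found in 92.3%, 90.8% and 98.5% of iNSLCs.

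Co-detection was taken as the number of iNSLCs with reads of both genes, divided by the number that the product of their shares gives. Its median was 1.08 over 231 replication pairs, 1.25 over 171 mitosis pairs and 1.12 over 418 pairs of a replication with a mitosis gene. A gene found in nearly every cell can only give a value near 1, so pairs were also compared among genes found in 20 to 80% of iNSLCs. There the median was 1.28 over 91 replication pairs, 1.28 over 153 mitosis pairs and 1.23 over 252 mixed pairs, against 1.05 over all pairs of 6521 genes of the same range of shares. Of all those pairs 67.4% lay above 1, and of the member pairs all 91 replication pairs, 99.3% of mitosis pairs and 98.4% of mixed pairs did. Replication and mitosis genes of this range thus differed little from each other in co-detection, and pairs across the classes were close to pairs within them.

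The pair with the highest value was CDK1 with AURKB, found together in 13 cells where the product of their shares gives 4.43, a value of 2.93. Among mitosis pairs CDK1 with BUB1 followed at 2.54, with 15 cells against 5.91. The highest mixed pair was CDC45 with CDK1 at 2.64, with 13 cells against 4.92, and CDC45 with BUB1 had 18 cells against 7.38. The highest replication pair was MCM5 with MCM10 at 2.04, with 13 cells against 6.37. MCM5 with AURKA was the lowest of all pairs at 0.71, with 6 cells against 8.49, and AURKA with CDC20 was the only mitosis pair below 1, at 0.96.

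**Figure D5:**
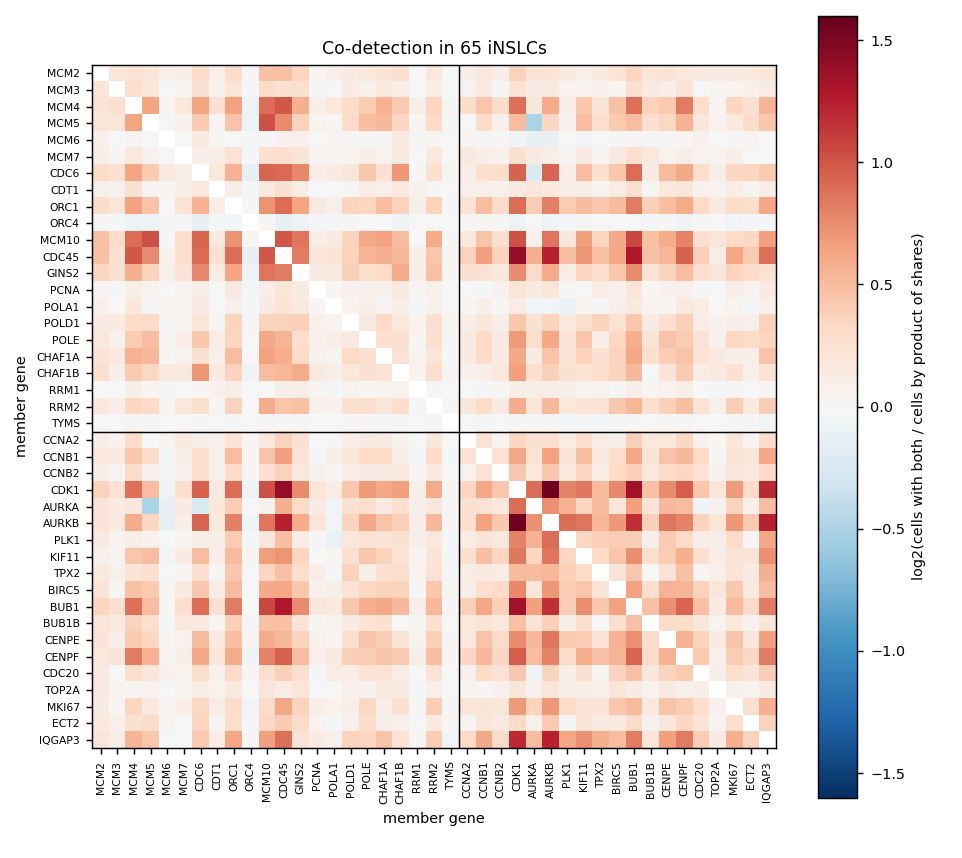
Colour gives log2 of the number of iNSLCs with reads of both genes over the number from the product of their shares, for 41 replication and mitosis genes on both axes, split by black lines, with 65 iNSLCs. Red is above and blue below 0. CDK1, AURKB, BUB1, CDC45 and MCM10 form red bands across both classes, with the highest ratio of 2.93 for CDK1 with AURKB, while ORC4, MCM6 and TYMS stay near 0.

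Further genes of the same pathways were counted from lists chosen by function. Of 47 other S phase genes, of which 45 passed the filter on low values, 30 were at least 2-fold higher in ESCs and 1 lower, with a median log2 ratio of 1.57 over the list. Over all genes these shares were 31.8% and 17.7%, with a median of 0.35. HELLS, a chromatin remodeller, was at 3.36, EXO1, a repair exonuclease, at 3.07 and PRIM1, the primase subunit, at 2.70. Of 57 other G2 and M genes 25 were higher and 3 lower, with a median of 0.91, a share nearer to that of all genes, and the kinetochore gene ZWINT was at 3.52. In the fibroblast 42 of these 57 genes were at least 2-fold lower and none higher, beside 26.1% and 26.5% of all genes. Of the 47 S phase genes, 46 of which passed the filter there, 13 were lower, which is near the share of all genes, and 4 were higher. Of the 4 histone genes with a row, out of 147 symbols looked for, 1 was higher in ESCs.

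Of 19 genes of the E2F and RB families and their partners 8 were at least 2-fold higher in ESCs and 4 lower, with a median of 0.06, beside the same 31.8% and 17.7% of all genes. MYBL2, an activator of cell cycle genes, was at 1016, 1075, 1418 and 959 in the ESCs, at 418 in the iPSC and at 3.64 in the fibroblast, against an iNSLC mean of 41.4 and a log2 ratio of 4.72. E2F1, which activates replication genes, had a ratio of 3.93 and E2F8, a repressor of the family, one of 3.55. Of 13 CDKs, CDC25 phosphatases and G1 regulators 5 were higher and 2 lower, both near the shares of all genes. They ran from PKMYT1, the kinase that holds CDK1 inactive, at 4.27 to CDC25B, an activator of CDK1, at -1.64.

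Of 8 CDK inhibitor genes 7 were at least 2-fold lower in ESCs, beside 17.7% of all genes, and CDKN2C had a mean under 1 in both groups. The lower genes not named below had low iNSLC means, 1.59 to 3.60, and log2 ratios of only -1.01 to -1.37. CDKN1A, the p21 inhibitor that p53 induces, had no read in ESC 10, ESC 11, ESC 12 and the iPSC and was at 15.8 in ESC 14, at 238 in the fibroblast and at a mean of 98.2 in iNSLCs. CDKN2A had no read in any ESC or the iPSC, which against a floor of 3 reads is at least 24-fold and 6.08-fold lower than the iNSLC mean of 19.5. CDKN1C, the p57 inhibitor, had a log2 ratio of -4.03 and CDKN1B, the p27 inhibitor, one of -2.16.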

How the data were processed

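RNA of 71 sorted single cells was made into libraries with the GenNext RamDA-seq and Nextera XT kits. The values deposited by the authors are a signal, counts divided by 1 factor per cell. Tools listed by the submitters in their processing notes, with no role stated, are Seurat 3.0.0, featureCounts 1.5.1, STAR 2.6.0c and Trimmomatic. No genome build or annotation was found, so each is not given in the sources used here. Values in a cell were whole multiples of the value of 1 read (100% within 0.02 of a read), from which reads were recovered. A row that names no gene took up to 0.449% of the total in a cell and was removed.

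Group means were compared as log2 ratios with a pseudocount of 1 for genes whose mean reached 1 in either group, which understates folds of low genes. Folds in the text are ratios of means. Each group is 1 culture as far as the labels say, so no test was made. In single libraries, fewer transcripts per cell and lower capture cannot be told apart. Shares have exact Clopper-Pearson intervals at 95%, which cover counting error only. The floor was 3 reads over a group. Thinning to 100000 reads left out 3 iNSLCs. Pairs entered co-detection where the product of shares gave at least 3 cells. Steps were tested on simulated data. Python 3.11.15, pandas 2.3.3, numpy 2.4.6, scipy 1.17.1 and matplotlib 3.10.9 were used.

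The members and lists were chosen with earlier results of these data known, as was the split of iNSLCs at cell number 56. Values in every ESC are given for up to 3 members of each role with the largest log2 ratio between ESCs and iNSLCs, the cyclins of G1 and S, ORC4 and PCNA. From other lists up to 4 genes were named by the size of the same ratio where a group mean reached 10. The pairs, the iNSLCs, and CDKN2C, COL1A1 and COL1A2 that are named singly were chosen after their values were seen.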

Additional observations from a re-analysis of the deposited data

Results flagged for a closer look

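Of 49 measures examined over the 4 ESCs, 4 had a cell far from the others by Dixon's test at 95%, where chance alone gives about 1 in 20 groups. POLD1 was at 304 normalized counts in ESC 11 and at 187 to 206 in the other ESCs. ECT2 was at 65.8 in ESC 14 and at 5.11 to 12.5 in the others. ESC 11 had reads of 19 replication genes where each of the others had 22, and of 15 mitosis genes where each of the others had 19. For both counts the others were tied at the full number of genes, so any lower count would have been flagged. The rate of 1 in 20 does not apply to them, and nothing is concluded from these flags. ESC 11 also had the fewest reads on genes of the ESCs, 134328, and its part in these counts was not tested beyond thinning, after which it had 18 and 15 and the other ESCs 20 to 22 and 17 to 18.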

How the results depend on the processing

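Of 99 values recomputed under alternatives, 81 stayed within the yardsticks used (1 SD over ESCs for ratios, 1 SD over pairs or cells, or the 95% interval of a share), 17 moved and 1 changed sign. The SD over ESCs was 0.82 for replication and 0.37 for mitosis medians, so mitosis ratios were more readily counted as moved. It was also used for the iPSC and the fibroblast, whose spread it does not measure. Leaving out each ESC in turn moved no median by more than this SD. The SD comes from the same ESCs, so leaving out 1 of them could hardly exceed it. These values are counted among the 81, and nothing about stability is concluded from them. With the median over cells in place of the mean, the replication medians became 3.74 in ESCs, 2.81 in the iPSC and 0.66 in the fibroblast (from -0.45), and the mitosis medians 2.35, 3.49 and 0. The medians of all genes also rose, to 0.59 in ESCs, 0.69 in the iPSC and 0.60 in the fibroblast. The change of sign for replication genes in the fibroblast thus left them near all genes. Many mitosis genes have an iNSLC median near 0. A pseudocount of 10 gave mitosis medians of 0.75 in the iPSC and -0.92 in the fibroblast. For the fibroblast the mitosis median was -2.59 with scaling to the median total, -3.43 with thinning and -2.68 against iNSLCs numbered 56 or below. Against the same iNSLCs it was 0.28 in ESCs, and against those numbered 57 or above it was 1.15 in ESCs and 1.78 in the iPSC. Without iNSLC 47, an alternative chosen after seeing the data, as was pooling the iPSC with the ESCs, the mitosis median in the iPSC was 1.54. The share of iNSLCs with at least 11 replication genes fell from 75.4% to 52.3% when 3 reads were required and to 61.3% with thinning. The mitosis pairs had a median co-detection of 1.57 with at least 3 reads. Apart from thinning and the read limit, which lower detection by construction, the cause of these shifts was not tested. No paired analysis was possible because the groups share no replicate numbers. Depth limits genes found in few cells, and 1 iPSC and 1 fibroblast give no spread.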
